A study of Homo sapiens with 2 samples.

Results

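The constitutive proteasome genes encode the subunits, activators and assembly factors of the proteasome that nearly all human cells make. They were compared between 2 arrays of cells labelled U87, an established human glioblastoma line. Members were the probe sets whose only gene symbol in the platform annotation is PSMA to PSMG followed by a number, leaving out the inducible immunoproteasome subunits PSMB8, PSMB9 and PSMB10. The rule gave 78 of 54675 probe sets and 39 of 19775 genes. One array held RNA of cells transfected with an siRNA against FOXM1, a forkhead factor of the cell division programme. The other held RNA of cells that received a non-target siRNA. All cells were transfected with a lipid reagent, and RNA was taken after 48 hours. These are called the FOXM1 siRNA array and the non-target array, as labelled. Since each group is a single array, spread between samples is unknown and neither a test nor a p-value can be given. In RNA of whole cultures, fewer cells of a type and less RNA per cell cannot be told apart.

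The 26S proteasome is the main machine that destroys proteins tagged with ubiquitin in the cytosol and nucleus. Its 20S core is a barrel of stacked rings: outer alpha rings gate the entry, and inner beta rings hold the protease sites. A 19S cap recognises the ubiquitin chain, removes it, and unfolds and feeds in the substrate with a ring of ATPases. Dedicated chaperones build each part, and other activators can take the place of the 19S cap. When the proteasome is inhibited, cells are known to raise most subunit genes together through the transcription factor NFE2L1.

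Values are MAS5 signal intensities, scaled by the authors to a common mean on each array. Signals of different genes come from different probes and are not compared with each other. A difference is the log2 signal on the FOXM1 siRNA array minus that on the non-target array. For a gene with several probe sets, the brightest over both arrays is used. A floor for each array, the 90th percentile of 135 olfactory receptor probe sets, lay at 77.7 on the FOXM1 siRNA array and 60.8 on the non-target array. The only error available is within the arrays: differences from 2 probe sets of 1 gene scattered with an SD of 0.65 over 5476 genes, or 0.46 per probe set.

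The labels were not borne out in full. FOXM1 read 1343 on the FOXM1 siRNA array and 1520 on the non-target array, a difference of -0.18 from its only probe set. The 9p21 genes CDKN2A, CDKN2B and MTAP, which U87 cells are known to lack, read 421, 31.8 and 76.3 on the FOXM1 siRNA array, CDKN2B and MTAP being below the floor there, and 3467, 350 and 619 on the non-target array. Among 5 glioma line markers, VIM and CD44 lay above the floor on both arrays, NES on the FOXM1 siRNA array only, S100B on the non-target array only and GFAP on neither. Their summed signal, nearly all from VIM and CD44, was 69629 on the FOXM1 siRNA array and 23559 on the non-target array. Among 5 epithelial markers, KRT8, KRT18 and DSP lay above the floor on both arrays. EPCAM did so on the FOXM1 siRNA array only and CDH1 on the non-target array only. All 5 summed to 1100 on the FOXM1 siRNA array and 12743 on the non-target array. That sum was carried by DSP and KRT18, both at least 2-fold lower on the FOXM1 siRNA array, while EPCAM (98.8 on the FOXM1 siRNA array, 48.1 on the non-target array) and KRT8 (265 on the FOXM1 siRNA array, 220 on the non-target array) did not read lower there. For the ACTB control, the ratio of 3' over 5' signal, a sign of RNA quality, was 4.21 on the FOXM1 siRNA array and 6.79 on the non-target array. The same ratio for the GAPDH control was 1.09 on the FOXM1 siRNA array and 1.26 on the non-target array. The part of these differences in the results was not tested. An effect of the siRNA and a difference between the cells cannot be told apart.

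Most constitutive proteasome genes differed by less than 2-fold between the arrays. Of the 39 genes, 38 lay above the floor on both arrays, and PSMA8, a testis alpha subunit, lay below it on both. Among the 38, PSMD5, PSMD2 and PSME1 were at least 2-fold higher on the FOXM1 siRNA array, PSMD10 was at least 2-fold lower, and 34 (89.5%) differed by less than 2-fold. The background was broad: 31.4% of 13865 detected genes differed by at least 2-fold, with 16.0% higher and 15.4% lower. Of the 38 genes, 10.5% did so. Their median difference was -0.04, with 18 above 0 and 20 below, against a median of 0.01 over all detected genes. The median size of the difference, regardless of sign, was 0.36 in the proteasome genes and 0.63 over all detected genes. Differences past 2-fold were less frequent among bright genes, and 35 of the 38 lay among the brightest 25% of detected genes. Within that class 3 of 35 proteasome genes (8.57%) and 23.7% of 3467 genes differed by at least 2-fold.

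**Figure D1:**
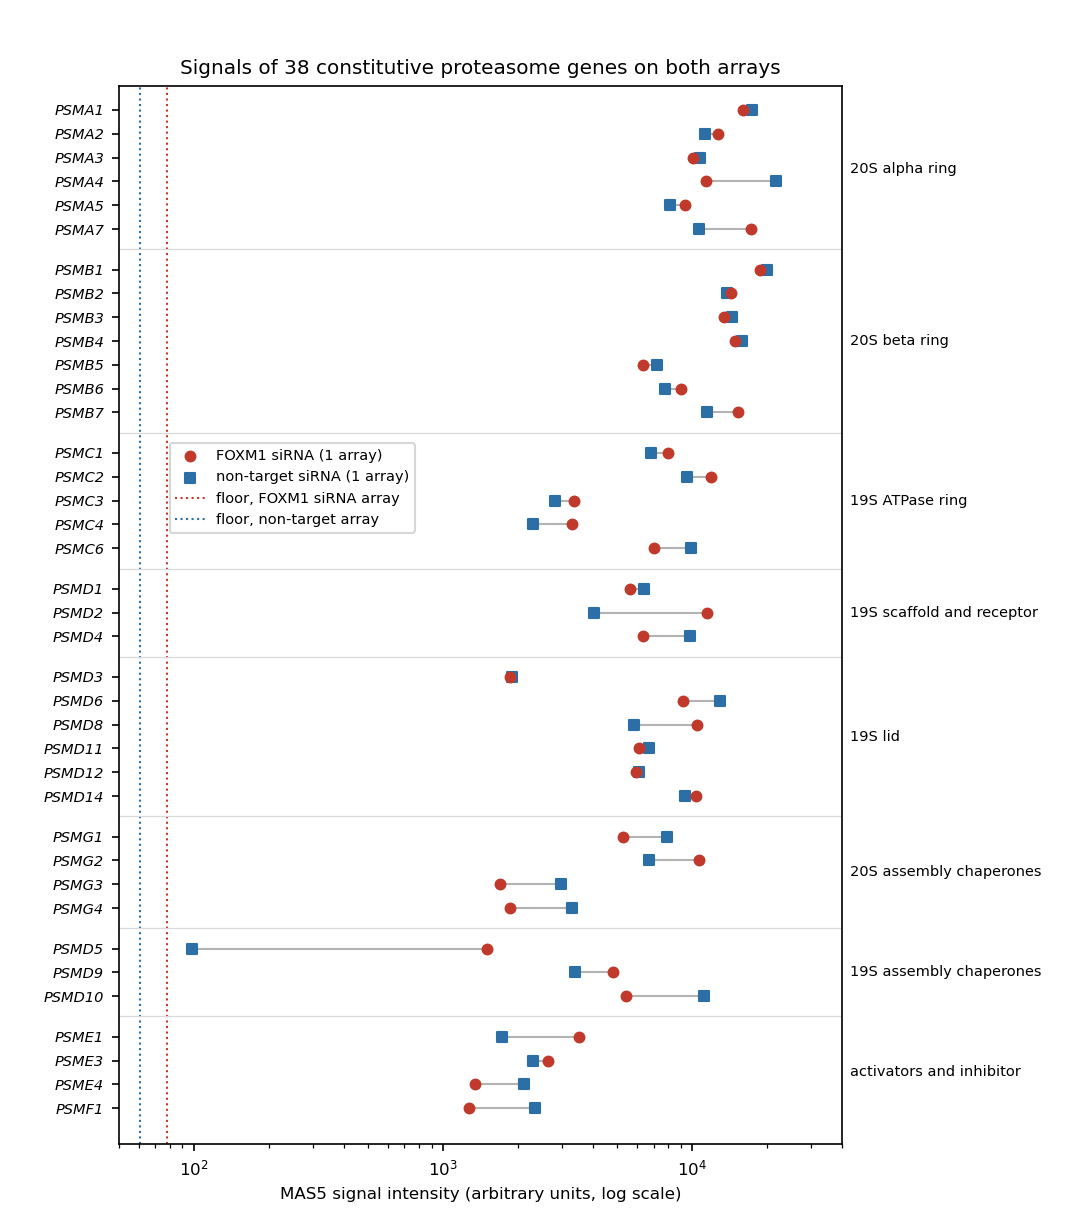
MAS5 signal of each of the 38 constitutive proteasome genes above the floor (horizontal axis, arbitrary units, log scale) on the FOXM1 siRNA array (circles) and the non-target array (squares), with 1 array each and the floor of each array as a dotted line. The 2 symbols nearly coincide for most core subunits, and PSMD5 stands apart at 1502 on the FOXM1 siRNA array and 98.7 on the non-target array.

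**Figure D2:**
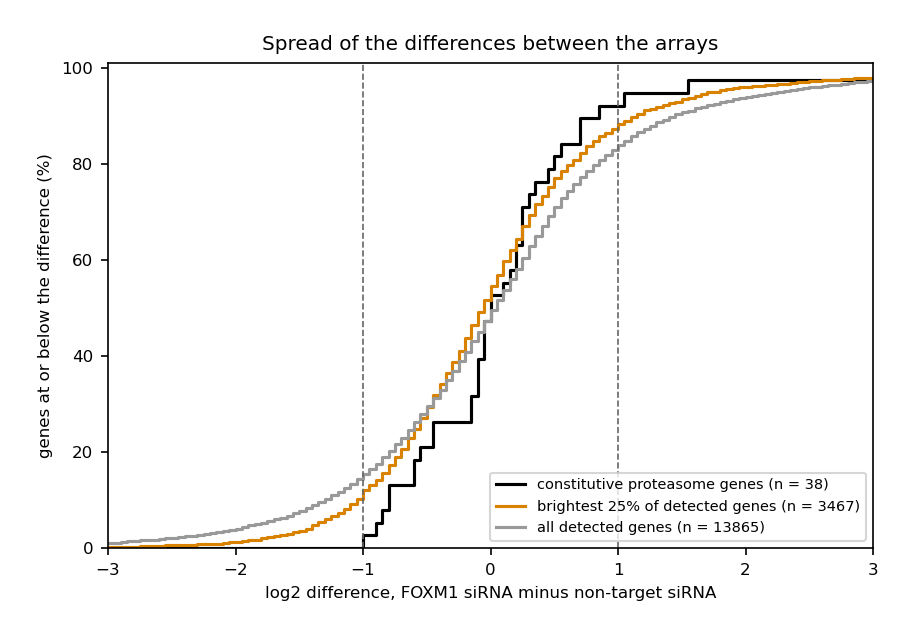
Percentage of genes (vertical axis) at or below each log2 difference, FOXM1 siRNA minus non-target siRNA (horizontal axis), for 38 constitutive proteasome genes, 3467 genes of the brightest 25% and all 13865 detected genes. Dashed lines mark 2-fold; the steep black line shows that 34 of 38 proteasome genes fall between them.

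The balance of the few larger differences depended on the scaling. Hybridisation controls, added in equal amounts, had a median difference of 0.30. Setting them equal moved the median of all genes to -0.29 and left 2 proteasome genes past 2-fold on the higher side and 5 on the lower side, against 3 and 1 as deposited. All 13865 detected genes moved the same way, with 1567 higher and 3200 lower (34.4% either way), against 2218 and 2132 as deposited. Centring each array on its median gave 2 higher and 3 lower, with the median of all genes at -0.15. Over all detected genes it gave 1850 higher and 2643 lower (32.4% either way). Differences under 0.30 in size therefore have no settled direction here. Relative to the median of all genes, the median of the proteasome genes lay between -0.05 and 0.12 as deposited and in all 13 alternatives. It could not change with median centring or equal hybridisation controls, which shift all genes alike, nor with a 1.5-fold threshold. The alternative with a mean kept the median here, so these alternatives only repeated the -0.05 as deposited.

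In the 20S core no gene reached 2-fold in its brightest probe set as deposited, although PSMA4 did after median centring, quantile scaling or with the hybridisation controls set equal. The 6 measured alpha ring genes had a median difference of 0.04 and the 7 beta ring genes one of -0.09. PSMA4 read 11297 on the FOXM1 siRNA array and 21657 on the non-target array, a difference of -0.94, the lowest of the core. PSMA7 lay at the other end with 17124 on the FOXM1 siRNA array and 10678 on the non-target array, a difference of 0.68, and its further probe set gave 0.60. These were the only core genes whose difference exceeded the probe set SD of 0.46. The other 11 of 13 measured core genes (84.6%) lay within it, against 38.8% of all detected genes. The other alpha genes, PSMA1, PSMA2, PSMA3 and PSMA5, ran from -0.11 to 0.21.

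All 3 catalytic beta subunits differed by less than that SD. PSMB5, which carries the chymotrypsin-like site, read 6339 on the FOXM1 siRNA array and 7186 on the non-target array (-0.18). PSMB6, with the caspase-like site, read 8995 on the FOXM1 siRNA array and 7774 on the non-target array (0.21). PSMB7, with the trypsin-like site, read 15204 on the FOXM1 siRNA array and 11453 on the non-target array (0.41, the highest of the ring). The noncatalytic subunits PSMB1, PSMB2, PSMB3 and PSMB4 lay within -0.10 to 0.05. The signals of PSMB2, for instance, were 14339 on the FOXM1 siRNA array and 13817 on the non-target array.

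The 19S ATPase genes, whose products form the unfolding ring, had a median of 0.26 over 5 measured genes, and none reached 2-fold. PSMC1, PSMC2, PSMC3 and PSMC4 were above 0, at 0.22, 0.31, 0.26 and 0.52. PSMC4 read 3304 on the FOXM1 siRNA array and 2298 on the non-target array. PSMC6 was the exception below 0, with 7007 on the FOXM1 siRNA array and 9865 on the non-target array (-0.49). PSMC2 had 3 probe sets above both floors that did not tell the same story. Its brightest gave 0.31, whereas 2 dimmer ones gave 1.49 (1248 on the FOXM1 siRNA array against 444 on the non-target array) and 1.36 (515 on the FOXM1 siRNA array against 200 on the non-target array).

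In the 19S base, PSMD2 and PSMD4 lay on opposite sides of 0. PSMD2 encodes a scaffold on which shuttle factors dock with their ubiquitinated cargo. It read 11493 on the FOXM1 siRNA array and 4036 on the non-target array, 2.85-fold higher, and was the only measured structural subunit past 2-fold. It was measured by 1 probe set. PSMD1, the other large scaffold, read 5605 on the FOXM1 siRNA array and 6372 on the non-target array (-0.18), with a further probe set at -0.17. PSMD4, a ubiquitin receptor of the cap, read 6368 on the FOXM1 siRNA array and 9781 on the non-target array. Its 3 probe sets above both floors ran from -0.62 to -0.52.

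The lid, which removes the ubiquitin chain, had a median of -0.04 over 6 measured genes. PSMD14, the deubiquitinating enzyme itself, read 10345 on the FOXM1 siRNA array and 9361 on the non-target array (0.14). PSMD3, PSMD11 and PSMD12 lay between -0.14 and -0.03 in their brightest probe sets. Further probe sets lay above 0: that of PSMD11 read 840 on the FOXM1 siRNA array and 472 on the non-target array (0.83), and that of PSMD12 gave 0.45. PSMD8 was the highest of the lid, with 10422 on the FOXM1 siRNA array and 5819 on the non-target array (0.84), and PSMD6 the lowest, with 9200 on the FOXM1 siRNA array and 12911 on the non-target array (-0.49). Both are structural subunits of the lid. Of the 27 measured structural subunits with PSM names, 26 (96.3%) differed by less than 2-fold, against 68.6% of all detected genes and 76.3% in the brightest 25%. The probe set SD was not exceeded by 19 (70.4%). That share was 38.8% over all detected genes and 44.4% in the brightest 25%.

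None of the 7 chaperone genes with PSM names lay within the probe set SD in its brightest probe set as deposited. That share was 38.8% over all detected genes and 44.4% in the brightest 25%. It depended on scaling and probe set. PSMD9 lay within the SD after median centring (0.34). With the hybridisation controls set equal, PSMD9 (0.19) and PSMG2 (0.36) did so. Further probe sets of PSMD9 (0.39) and PSMG4 (-0.44) lay within it too. By contrast, POMP (-0.25) and PAAF1 (-0.29), assembly factors outside the PSM names, lay within the probe set SD as deposited. Of the 11 chaperone, activator and inhibitor genes 3 (27.3%) differed by at least 2-fold, a share near the 31.4% of all detected genes. The median size of the difference was 0.81 in these 11, 0.21 in the 27 structural subunits and 0.63 over all detected genes, with no test possible between the classes.

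PSMD5 had the largest difference of all 38. Its product is a chaperone of the 19S base that holds the ATPase PSMC2 during assembly and is absent from the finished proteasome. PSMD5 read 1502 on the FOXM1 siRNA array and 98.7 on the non-target array, 15.2-fold higher and only a little above the floor of the non-target array. Its other probe set did not exceed either floor. In the alternatives the difference ran from 2.14 to 3.97, the lowest being the median over both probe sets, where the undetected probe set enters at the ratio of the floors. PSMC2, its partner, differed by 0.31 in its brightest probe set.

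The other 19S chaperones did not share this difference. PSMD10, also called gankyrin, binds the ATPase PSMC4 and is known as an oncoprotein that acts on RB1 and MDM2. It read 5405 on the FOXM1 siRNA array and 11109 on the non-target array, 2.06-fold lower. A further probe set, 2612 on the FOXM1 siRNA array and 5882 on the non-target array, gave -1.17. Its difference lay between -1.34 and -1.01 in all 10 alternatives. PSMC4 itself lay at 0.52. PSMD9, the remaining base chaperone among the members, read 4789 on the FOXM1 siRNA array and 3395 on the non-target array (0.50).

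Among the 20S chaperones, which seed the alpha ring as a pair of heterodimers, 1 dimer was split and the other was not. PSMG1 and PSMG2 form the first. PSMG1 read 5293 on the FOXM1 siRNA array and 7923 on the non-target array (-0.58). PSMG2 read 10608 on the FOXM1 siRNA array and 6696 on the non-target array (0.66). The partners, each measured by 1 probe set, thus lay 1.25 apart, against an SD of 0.65 between probe sets of 1 gene. They are different genes, however, and differences of all detected genes scattered with an SD of 1.23. The gap does not stand out from that spread. PSMG3 and PSMG4, the second dimer, were both lower, at -0.81 and -0.82. PSMG3 read 1700 on the FOXM1 siRNA array and 2982 on the non-target array, and PSMG4 1862 on the FOXM1 siRNA array and 3296 on the non-target array. A further PSMG4 probe set above both floors gave -0.44.

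The activators also differed among themselves. PSME1, a subunit of the interferon-inducible ring that favours the making of antigenic peptides, read 3511 on the FOXM1 siRNA array and 1721 on the non-target array, 2.04-fold higher. It lay under 2-fold after median centring and with the hybridisation controls set equal, where its difference was 0.73. PSME3, which forms a nuclear activator, read 2626 on the FOXM1 siRNA array and 2297 on the non-target array, and its 4 probe sets ran from 0.17 to 0.49. PSME4, the large nuclear activator, was lower in its brightest probe set, with 1343 on the FOXM1 siRNA array and 2103 on the non-target array (-0.65), but the other 2 gave -0.15 and 0.03. PSMF1, which inhibits the 20S core in vitro, read 1273 on the FOXM1 siRNA array and 2331 on the non-target array (-0.87). All 4 of its probe sets were lower, from -0.98 to -0.65.

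**Figure D3:**
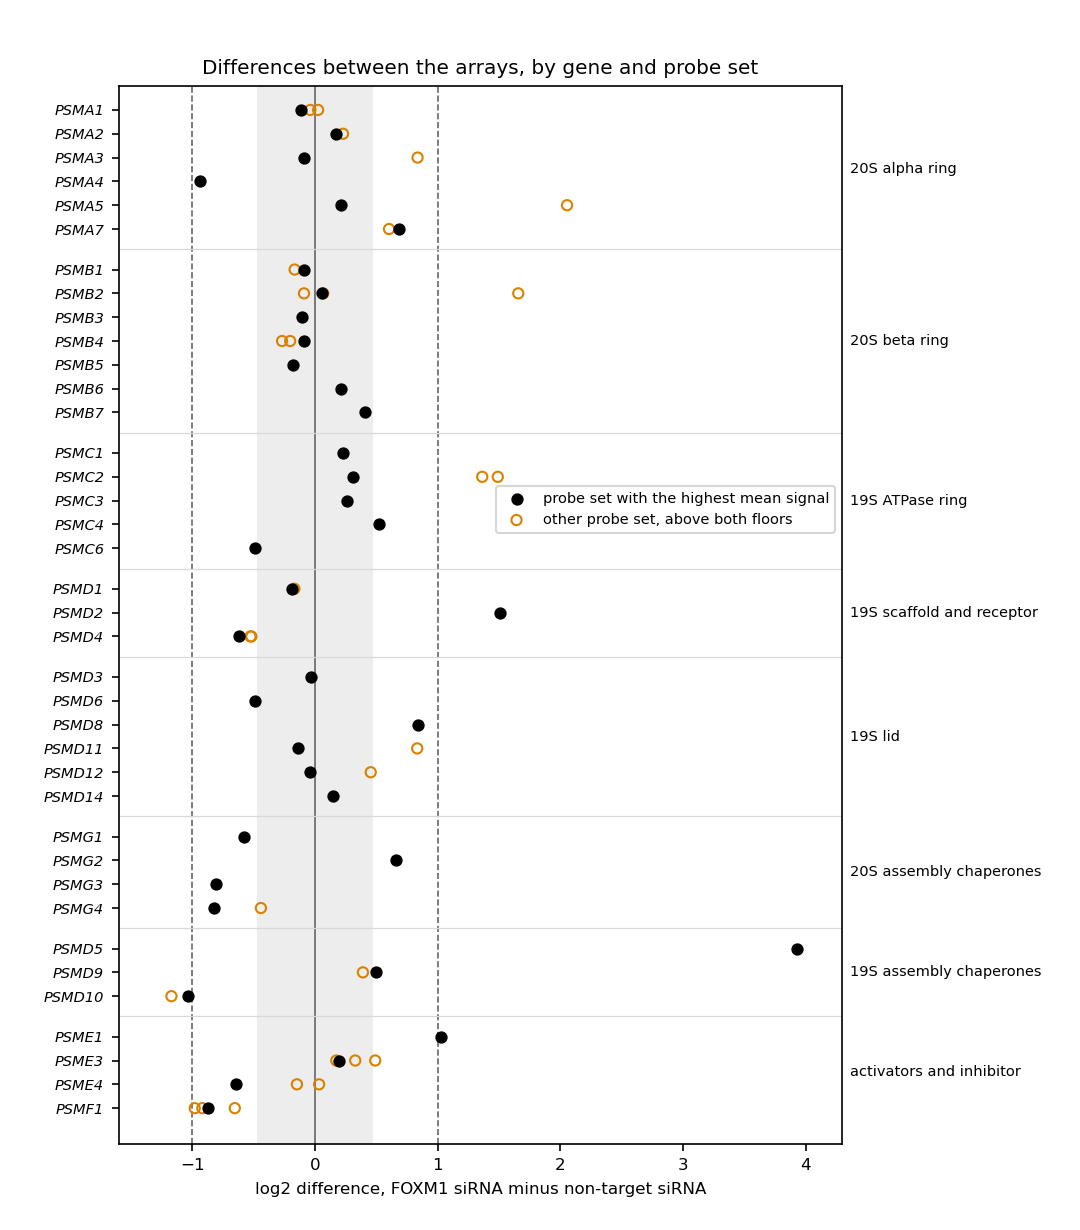
Log2 difference of each proteasome gene, FOXM1 siRNA minus non-target siRNA (horizontal axis), for its brightest probe set (filled) and any other probe set above both floors (open), with dashed lines at 2-fold and the probe set SD of 0.46 shaded. The filled points of the core lie mostly in the shaded band, those of the chaperones outside it, and open points of PSMA5, PSMB2 and PSMC2 lie beyond 2-fold.

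Of 19 proteasome genes with at least 2 probe sets above both floors, 14 had an SD under 0.46 and the median SD was 0.14, and in 13 all probe sets lay on the same side of 0. The 5 with a larger SD were PSMA3, PSMA5, PSMB2, PSMC2 and PSMD11, each through dimmer probe sets. For PSMA3 the dimmer one above both floors gave 0.84, against -0.09 from the brightest. For PSMA5 a probe set with 489 on the FOXM1 siRNA array and 118 on the non-target array gave 2.06, while the brighter one gave 0.21. For PSMB2 a probe set with 294 on the FOXM1 siRNA array and 93.1 on the non-target array gave 1.66, against 0.05 from the brightest. Over the 72 probe sets above at least 1 floor, 7 passed 2-fold on the higher side and 3 on the lower side. The same count was not made over all probe sets of the arrays. By gene, 31.4% of all detected genes differed by at least 2-fold.

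The promoters of the 4 genes past 2-fold are shown because these genes carry the differences. Each window runs from 250 bases before to 50 after the transcription start, from RefSeq on build GRCh38.p14, 5′ to 3′ on the gene's strand. Capitals mark TGACNNNGC, the core of the antioxidant response element that NFE2L1 binds, and GTAAACA, a forkhead motif, searched on both strands; the marked matches do not overlap.
PSMD5, chr9:120842873-120843172, minus strand: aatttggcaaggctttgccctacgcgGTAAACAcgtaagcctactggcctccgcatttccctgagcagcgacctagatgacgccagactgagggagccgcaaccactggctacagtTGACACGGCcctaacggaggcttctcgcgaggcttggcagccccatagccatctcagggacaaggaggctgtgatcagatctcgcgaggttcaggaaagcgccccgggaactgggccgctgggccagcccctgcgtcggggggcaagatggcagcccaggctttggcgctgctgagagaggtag
PSMD2, chr3:184298991-184299290, plus strand: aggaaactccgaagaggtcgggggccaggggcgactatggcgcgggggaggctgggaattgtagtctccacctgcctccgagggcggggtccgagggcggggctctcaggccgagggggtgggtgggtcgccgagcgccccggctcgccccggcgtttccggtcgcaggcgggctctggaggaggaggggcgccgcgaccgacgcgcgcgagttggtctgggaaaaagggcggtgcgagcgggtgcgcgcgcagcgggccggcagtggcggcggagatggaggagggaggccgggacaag
PSME1, chr14:24135944-24136243, plus strand: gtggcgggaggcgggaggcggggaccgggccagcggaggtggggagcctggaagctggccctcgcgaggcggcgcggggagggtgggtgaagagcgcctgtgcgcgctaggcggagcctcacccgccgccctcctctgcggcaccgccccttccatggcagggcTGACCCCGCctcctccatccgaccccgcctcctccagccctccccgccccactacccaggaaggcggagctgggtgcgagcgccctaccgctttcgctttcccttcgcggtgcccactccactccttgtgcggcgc
PSMD10, chrX:108091493-108091792, minus strand: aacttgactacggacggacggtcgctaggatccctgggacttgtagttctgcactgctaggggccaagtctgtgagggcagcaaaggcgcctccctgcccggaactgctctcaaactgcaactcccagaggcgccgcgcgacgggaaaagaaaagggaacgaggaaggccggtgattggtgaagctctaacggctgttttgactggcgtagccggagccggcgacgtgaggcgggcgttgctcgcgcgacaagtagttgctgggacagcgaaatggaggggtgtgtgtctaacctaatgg
The PSMD5 window holds both motifs, as GTAAACA and TGACACGGC. The PSME1 window holds the antioxidant core alone, as TGACCCCGC, and those of PSMD2 and PSMD10 hold neither.

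Windows were given for 32 of the 38 genes; PSMA7, PSMB1, PSMB6, PSMB7, PSMD4 and PSMG3 have none. The antioxidant core was in 11 of 32 (34.4%), against 13.6% of 27305 promoters of the same length. The 11 had a median difference of -0.03 and the 21 others one of -0.09. The forkhead motif was in the windows of PSMB2 and PSMD5 (6.25%, against 3.41% of all). TTTGAA, the cell cycle homology region of late cell cycle promoters, was in 3 (9.38%, against 15.4%), and TTCNNNGAA, the gamma-activated site, in 4 (12.5%, against 7.88%). PSME1 was not among these, but only the motifs named here were searched, so its window may hold other interferon motifs. Both strands were searched and matches of different motifs may overlap. A match is a stretch of letters and not a bound site.

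The immunoproteasome subunits, which replace the catalytic beta subunits after interferon, read higher on the FOXM1 siRNA array, 2 of them past 2-fold, while none of their constitutive counterparts passed 2-fold. PSMB8, the counterpart of PSMB5, read 1132 on the FOXM1 siRNA array and lay below the floor on the non-target array, at least 18.6-fold higher. PSMB9, the counterpart of PSMB6, read 1284 on the FOXM1 siRNA array and 119 on the non-target array, 10.8-fold higher. PSMB10, the counterpart of PSMB7, read 901 on the FOXM1 siRNA array and 517 on the non-target array, 1.74-fold higher. The differences exceeded those of the counterparts by at least 4.40, by 3.22 and by 0.39 on the log2 scale.

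Most other genes of the pathway also differed by less than 2-fold. Of 26 measured genes for proteasome-bound factors, substrate delivery, regulators and ubiquitin, 3 passed 2-fold higher and 2 lower as deposited. These made up 19.2%, against 31.4% of all detected genes, and the median of the 26 was 0.15. Among the 10 bound and assembly factors, SEM1, a small lid subunit, and POMP, which matures the 20S core, lay at -0.01 and -0.25. ADRM1, a ubiquitin receptor, read 4050 on the FOXM1 siRNA array and 2413 on the non-target array (0.75). UCHL5, the deubiquitinase that ADRM1 recruits, read 1286 on the FOXM1 siRNA array and 3479 on the non-target array, 2.70-fold lower. A further UCHL5 probe set gave -1.66 and another gave 0.21.

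NFE2L1, the transcription factor of proteasome genes named above, read 6088 on the FOXM1 siRNA array and 2556 on the non-target array, 2.38-fold higher, and its 3 probe sets ran from 1.25 to 1.55. The proteasome genes as a whole had a median of -0.04 on the same arrays. NGLY1, which processes NFE2L1, lay at -0.33. ZFAND2A, a stress-induced proteasome-binding protein gene, was 2.10-fold higher and UBA6, a ubiquitin-activating enzyme gene, 2.03-fold higher. With the hybridisation controls set equal, NFE2L1 (0.95), ZFAND2A (0.76) and UBA6 (0.72) lay under 2-fold. After median centring ZFAND2A (0.91) and UBA6 (0.87) did so too. UBA6 lay from 0.48 to 0.94 in its other probe sets above both floors. UBQLN4, a shuttle factor gene, was 2.04-fold lower, although its other probe set gave 0.26. It lay under 2-fold after quantile (-0.99) and loess (-0.91) scaling. The ubiquitin gene UBB (0.21), the unfoldase gene VCP (-0.03) and the shuttle factor gene RAD23B (0.05) differed by less than the probe set SD.

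**Figure D4:**
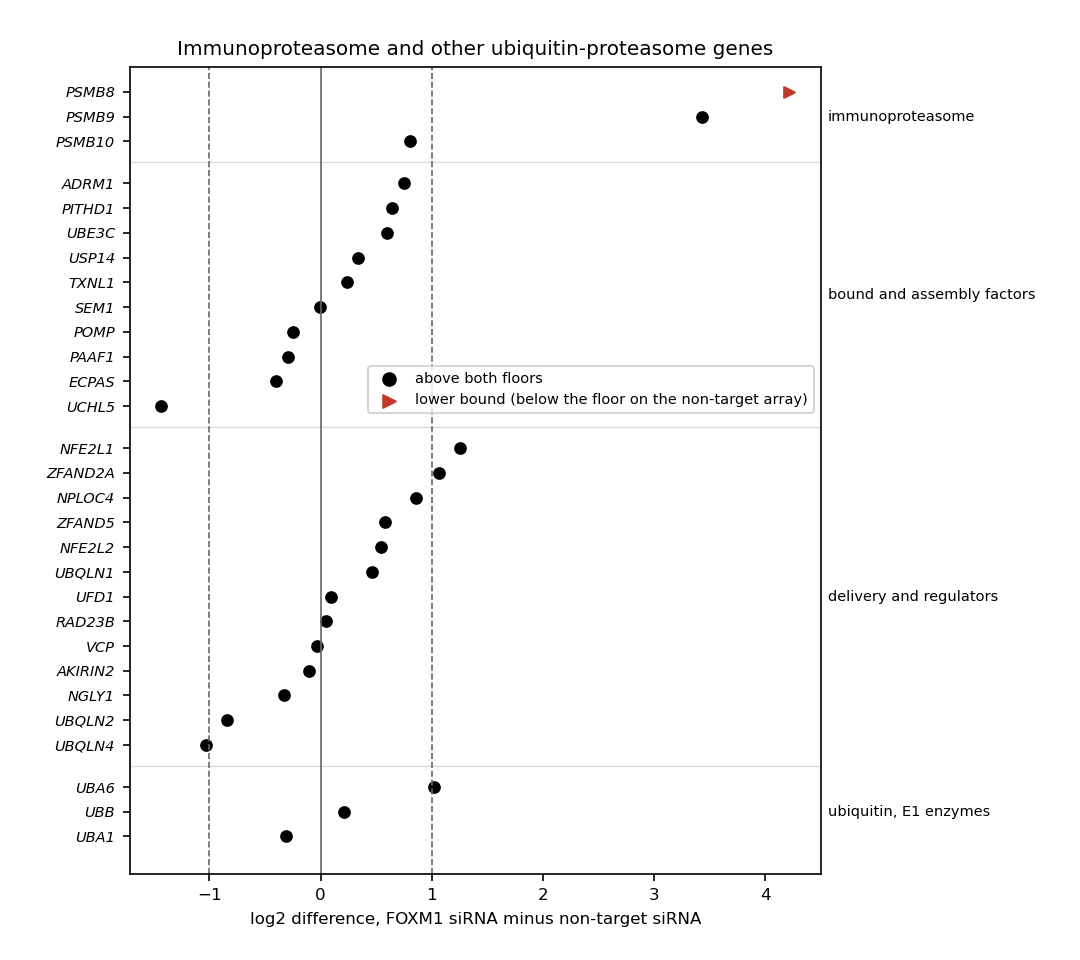
Log2 difference, FOXM1 siRNA minus non-target siRNA (horizontal axis), of the immunoproteasome subunits and 26 other genes of the pathway, each by its brightest probe set; dashed lines mark 2-fold. PSMB8 (a triangle, a lower bound) and PSMB9 lie far right, NFE2L1, ZFAND2A and UBA6 just past 2-fold higher, and UCHL5 and UBQLN4 past 2-fold lower.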

How the data were processed

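Total RNA of 2 samples was labelled with a 3' IVT kit and hybridised to 1 array each, per the labels' protocols. The deposited values are linear signal intensities made with MAS5, per the submitters' processing notes, with no version or setting stated. With 2% of values trimmed from each end, both arrays had a mean of 500.07, so each had been scaled as a whole. The arrays' number limits the precision.

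Gene names came from the platform annotation (41097 with 1 symbol, 1801 with several, 11777 not listed), with symbols updated by gene ID to GRCh38.p14. Probe sets of several symbols were left unnamed, and PSMA6, PSMB11, PSMC5, PSMD7, PSMD13 and PSME2 had no single-symbol probe set and were not analysed here. Signals below the floor were raised to it before log2. A gene counted as detected when its brightest probe set exceeded the floor of either array; where it exceeded 1 floor only, the fold is a bound. Counts use a 2-fold threshold. Members, lists and alternatives were chosen with earlier results of these data known. Every gene of the rule is accounted for, both signals are given for those past 2-fold and for the extremes of each class, and other genes come from the lists. The calculation was tested on simulated data. Alternatives were other scalings (quantile and loess with limma 3.58.1 in R 4.3.3), floors, probe set choices, a pseudocount of 50, a 1.5-fold threshold, means and all probe sets. Python 3.11.15, numpy 2.4.6 and pandas 2.3.3 were used.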

Additional observations from a re-analysis of the deposited data

How the results depend on the processing

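Of 371 values of single proteasome genes under the alternatives, 361 moved by less than the probe set SD of 0.46 and none past 2-fold changed sign. The other 10 came from probe set choices, apart from PSMD5 with the pseudocount. Median centring and equal hybridisation controls shift all genes alike, by less than that SD, and floors left all but PSMD5 unchanged. Such alternatives could hardly exceed the SD, so the 361 do not measure stability. With the same limit, 105 of 108 medians of the proteasome genes and their classes moved by less than that SD. The exceptions were the base scaffold and receptor class at 1.51 and the 19S chaperones at 1.38 without probe sets whose IDs end in _x_at or _s_at, which leaves fewer genes, and the 19S chaperones at 1.13 with a mean, which PSMD5 raises. The number of proteasome genes at least 2-fold higher, 3 as deposited, was 5 with the median of probe sets, 5 without _x_at and _s_at probe sets, 6 at 1.5-fold, and 7 probe sets of 6 genes passed when each probe set was counted. The number at least 2-fold lower, 1 as deposited, was 2 after quantile scaling, 3 after median centring, 5 with the hybridisation controls set equal, 7 at 1.5-fold, and 3 probe sets of 2 genes passed when each probe set was counted. Over all detected genes, the share past the threshold either way was 31.4% as deposited and 52.9% at 1.5-fold. It was 23.2% with the median of probe sets and 31.1% without _x_at and _s_at probe sets. The other scalings gave 30.9% (quantile), 32.4% (median centring) and 34.4% (hybridisation controls set equal). UCHL5 changed sign, to 0.21, without _x_at and _s_at probe sets, where another probe set stands for it. No paired analysis was possible because each group has 1 array. No replicate could be left out for the same reason.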

Other observations

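The nearest protein-coding genes with a detected probe set on either side of the 4 proteasome genes past 2-fold, looked up after their values were seen, gave the following values. FBXW2 and PHF19, beside PSMD5, differed by -0.36 and -0.12, whereas PSMD5 differed by 3.93. ECE2 and EIF4G1, beside PSMD2, differed by 0.04 and -0.10, whereas PSMD2 differed by 1.51. EMC9, on 1 side of PSME1, differed by -0.43, and FITM1, on the other side, was above the floor on the non-target array only. Beside PSMD10 both genes were lower, as PSMD10 was: MID2 read 111 on the FOXM1 siRNA array and 804 on the non-target array (-2.86), and ATG4A read 537 on the FOXM1 siRNA array and 1036 on the non-target array (-0.95).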
